A study of Mus musculus with 12 samples.

Results

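Glycolysis isozyme pairs are genes that encode alternative forms of the same glycolytic enzyme, and the balance between the forms of a pair differs from tissue to tissue. The 5 pairs described here are Hk1 and Hk2 (hexokinase), Pfkm and Pfkp (phosphofructokinase), Aldoa and Aldoc (aldolase), Eno1 and Eno2 (enolase), and Ldha and Ldhb (lactate dehydrogenase). The 10 members were chosen by name as 1 pair for each of 5 enzyme steps, not by a measured value, though with earlier results of these data known. They fill 11 of the 32289 entries of the deposited gene table, because Aldoa is listed under 2 gene identifiers.

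Glycolysis breaks glucose down to pyruvate and yields ATP, and lactate dehydrogenase converts pyruvate to lactate and back. Isozymes of a step run the same reaction but differ in kinetics, in regulation and in the cells that make them. Enolase 2 is known as neuron-specific enolase and is measured as a marker of neuronal and neuroendocrine tumors, and Ldha and several other glycolysis genes are known targets of MYC proteins.

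The study followed how neuroblastoma develops in a mouse line in which a rat Th promoter drives the human MYCN gene in sympathetic cells. Droplet-based single-cell RNA sequencing (Chromium 3′ kit v1) was performed on the superior mesenteric ganglion (SMG), 1 SMG per sample. The groups were 1 wild-type mouse at 3 weeks of age (WT), 10 hemizygous Th-MYCN+/- mice at 3 weeks, and 1 hemizygous Th-MYCN+/- mouse at 6 weeks, all of the strain 129+Ter/SvJcl. The 6-week SMG was chosen for a visible tumor, and the WT and 6-week groups held 1 mouse each, so that age, genotype and mouse cannot be told apart in them.

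Each captured RNA molecule was counted once through its unique molecular identifier (UMI). The WT library held 1147772 UMIs and the 6-week library 4824039. The 10 libraries of 3-week Th-MYCN+/- mice held from 1444554 to 6388766 UMIs, with a median of 3000078.5. After cell calling and filters 11785 cells were kept. The median UMIs per cell were 555.5 in the WT mouse, 1664 in the 6-week mouse, and from 698.5 in mouse 3 to 2367 in mouse 8 among the others. Levels below are UMIs per 1000000 UMIs (CPM) of all cells of a class in a mouse, with mice as replicates. A UMI is counted near the 3′ end of a transcript whatever its length, so that levels of different genes need no scaling by length, but capture and mapping can differ between genes and a ratio of UMIs is not a ratio of enzymes.

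Cells were clustered without the members, without other glycolysis genes and without the transgene, and clusters were named from marker genes. The 3 largest named classes were 2942 neuroblast-like, 2893 Schwann-like and 2599 ganglion-like cells. Their own marker lists summed to 13809 ± 1891 CPM (SD, n = 10 mice), 16385 ± 1842 CPM (n = 9) and 30219.9 ± 4543 CPM (n = 10) in 3-week Th-MYCN+/- mice. Human MYCN gave from 109 to 567 CPM in neuroblast-like cells of these mice and at most 19.3 CPM in their ganglion-like or Schwann-like cells. A further 2235 cells, most of them in cluster 1 with a median of 522.5 UMIs, met the naming rule of no class and were left unnamed.

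Mouse 2 stood apart. It gave 1385 of the 2599 ganglion-like cells but 7 Schwann-like cells, too few for a class sum of at least 10 cells, and 23 neuroblast-like cells. Most of its ganglion-like cells were in cluster 3, while those of the other mice were mainly in clusters 5 and 8. It therefore entered no comparison with Schwann-like cells, and each comparison of a member's level or ratio that holds it was also run without it. Direction and call were kept there except for the level of Eno1, which changed its sign. Doublet detection with Scrublet marked 48 cells, or 0.407%, and was taken not to have worked, so that cells holding RNA of more than 1 cell remain. At most 6 cell barcodes were shared by any pair of libraries, and 89 distinct barcodes were shared in all.

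Some cells of a class carried more marker UMIs of another main class than of their own. In the neuroblast-like class of the 10 mice these were 104 of 2654 cells, holding from 0.099% of the class UMIs in mouse 8 to 20.2% in mouse 10. With all cells, the ganglion markers (10 of 10 genes with a UMI, Npy the highest) summed to 3050.1 ± 2079.7 CPM in neuroblast-like cells, with a range from 1268 in mouse 6 to 7395 in mouse 10. Since this share bears on the isozymes that ganglion-like cells hold most of, values are also given with these cells left out, a setting chosen after the data were seen.

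The 3 classes differed in the balance of their isozymes. In both neuroblast-like and ganglion-like cells Aldoa, Eno1, Ldha, Hk1 and Pfkp led their pairs. Neuroblast-like cells held very little Aldoc and Eno2. Of the 3 classes, ganglion-like cells had the highest Aldoa, Eno2, Pfkp and Hk1. Schwann-like cells had 1.35 Aldoa UMIs per Aldoc UMI as a geometric mean, with more Aldoa in 8 of 9 mice. They had more Ldhb than Ldha and more Pfkm than Pfkp. Their ratio thus lay on the other side of 1 from the neural classes in the lactate dehydrogenase and phosphofructokinase pairs.

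Levels were compared between classes within mice by the edgeR quasi-likelihood test over all genes that passed a filter on low counts, with Benjamini-Hochberg adjusted p and a threshold of 0.05. In neuroblast-like against ganglion-like cells 67.2% of 7008 genes passed the threshold, 35.2% higher in neuroblast-like and 32.1% higher in ganglion-like cells. Of the 9 members tested 0 were higher in neuroblast-like cells, 8 were higher in ganglion-like cells, and Eno1 did not pass. Between neuroblast-like and Schwann-like cells 70.9% of 6211 genes passed, 36.5% higher in neuroblast-like and 34.4% higher in Schwann-like cells. Of the 8 members tested Eno1, Ldha and Pfkp were higher in neuroblast-like cells, Aldoc, Ldhb and Pfkm were higher in Schwann-like cells, and Aldoa and Hk1 did not pass. Between ganglion-like and Schwann-like cells 73.5% of 3390 genes passed, 40.4% higher in ganglion-like and 33.1% higher in Schwann-like cells. Of the 8 members tested 6 were higher in ganglion-like cells, and Aldoc and Ldhb were higher in Schwann-like cells. Hk2 passed the filter in none of these comparisons, Eno2 not between neuroblast-like and Schwann-like cells, and Pfkm not between ganglion-like and Schwann-like cells. These 3 comparisons share the same class sums and are not independent of each other.

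The balance within a pair was measured as the log2 ratio of its UMIs, with 0.5 UMIs added to each gene, where a class sum of a mouse held at least 10 cells and 10 UMIs of the pair. Ratios do not depend on how libraries are scaled. Differences between classes of the same mouse were tested over mice by an exact permutation of their signs (two-sided). There were 15 such comparisons, 13 of them with enough mice for a p below 0.05, and their p values are not adjusted. The smallest p possible is 0.00195 with 10 mice and 0.00391 with 9.

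**Figure D1:**
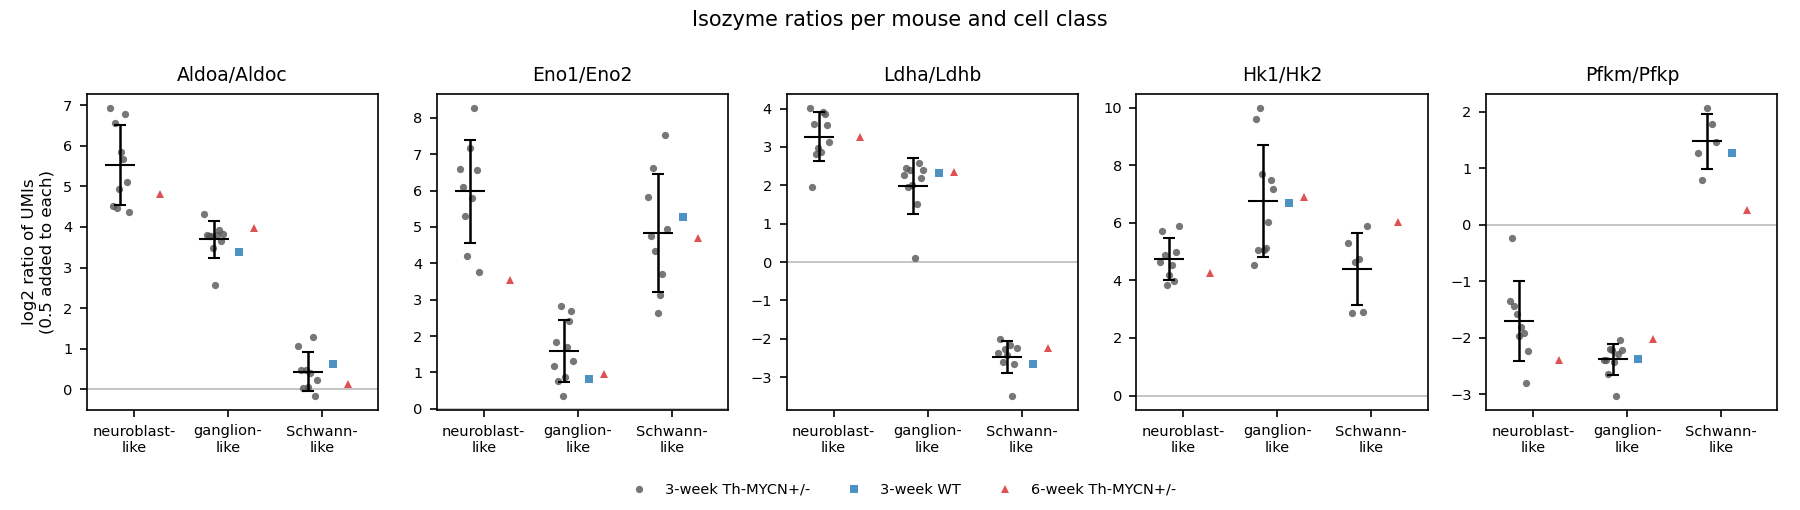
Log2 ratio of the UMIs of each isozyme pair (vertical axis, 0.5 UMIs added to each gene) in the neuroblast-like, ganglion-like and Schwann-like cells of each mouse, with black bars for the mean and SD of the 3-week Th-MYCN+/- mice; the WT mouse has no neuroblast-like point. Ldha/Ldhb and Pfkm/Pfkp change sides of 0 between the neural classes and Schwann-like cells, and Eno1/Eno2 is lowest in ganglion-like cells.

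**Figure D2:**
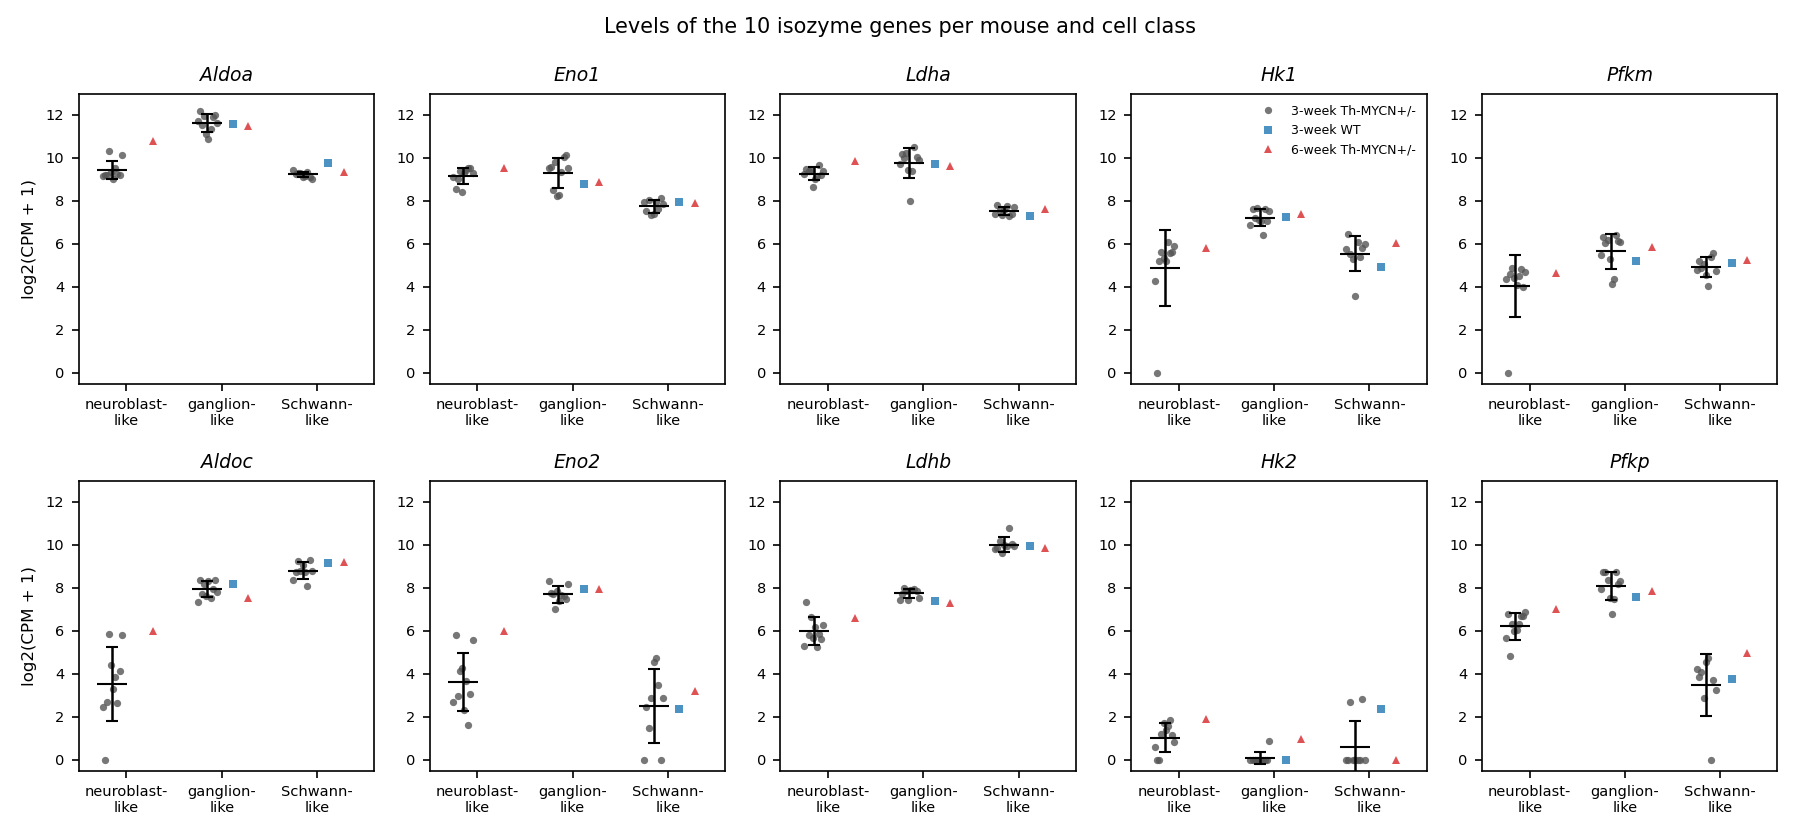
Level of each of the 10 isozyme genes as log2(CPM + 1) (vertical axis, log scale) in the same classes and mice, with black bars for the mean and SD of the 3-week Th-MYCN+/- mice; each column of panels is 1 enzyme step. Aldoa is highest in ganglion-like cells, Ldhb and Aldoc in Schwann-like cells, and Hk2 lies near 0 in all 3 classes.

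Hexokinase traps glucose in the cell by adding a phosphate. Hk1 (ENSMUSG00000037012, GRCm38 chr10:62268855-62379908, minus strand) encodes the form known from brain and most other tissues, and Hk2 (ENSMUSG00000000628, chr6:82725025-82774454, minus strand) the form known from muscle, fat and many tumors. In ganglion-like cells Hk1 ranged from 83.2 to 202 CPM with a median of 142 (mean 153 ± 39.3 SD, n = 10). In neuroblast-like cells it ranged from 0 in mouse 2, whose 18355 class UMIs allow up to 163 CPM at a count of 0, to 66.2 CPM with a median of 43.1 (39.7 ± 19.1, n = 10). In Schwann-like cells it ranged from 11.1 to 85.8 CPM with a median of 52.5 (50.8 ± 20.8, n = 9). Every mouse had more Hk1 in ganglion-like cells than any mouse had in neuroblast-like cells, while the Schwann-like range overlapped both. Hk1 was 3.33-fold lower in neuroblast-like than in ganglion-like cells, in 10 of 10 mice (edgeR, adjusted p = 1.6e-07). It was 2.75-fold higher in ganglion-like than in Schwann-like cells, in 9 of 9 mice (adjusted p = 1.1e-05). Between neuroblast-like and Schwann-like cells the log2 difference in Hk1 was −0.49 ± 0.22 (SE, adjusted p = 0.0589), and it passed the threshold with the marker-led cells left out (−0.58, adjusted p = 0.0309) but was −0.22 without the filter on low counts (adjusted p = 0.511) and −0.25 with DESeq2 (adjusted p = 0.385).

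Hk2 was barely detected in any of the 3 classes. Over all 3-week Th-MYCN+/- mice, neuroblast-like cells gave 17 UMIs of Hk2 beside 562 of Hk1, a Hk1 share of 97.1% (exact Clopper-Pearson 95% interval 95.3% to 98.3%, counting error only). Schwann-like cells gave 5 UMIs of Hk2 beside 128 of Hk1, and ganglion-like cells 1 beside 1390. Hk1 was thus the leading hexokinase transcript in these classes at this depth. The mean log2 Hk1/Hk2 was 4.74 ± 0.72 (SD, n = 9) in neuroblast-like, 6.77 ± 1.95 (n = 10) in ganglion-like and 4.39 ± 1.25 (n = 6) in Schwann-like cells. The ratio was lower in neuroblast-like than in ganglion-like cells by a log2 difference of −1.72 ± 1.88 (SD), in 7 of 9 mice (exact p = 0.0234). With 1 UMI of Hk2 in all ganglion-like cells, their ratio follows the number of Hk1 UMIs and the added 0.5, and with 5 UMIs added the difference was −0.35 (exact p = 0.508). Taken as the mean over cells instead of the sum, it was 0.20 (exact p = 0.766). The other Hk1/Hk2 differences were 0.58 ± 1.21 between neuroblast-like and Schwann-like cells (n = 6, exact p = 0.375) and 2.70 ± 2.81 between ganglion-like and Schwann-like cells (n = 6, exact p = 0.0625, where 0.0312 is the smallest possible).

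Phosphofructokinase makes the committed step of glycolysis. Pfkm (ENSMUSG00000033065, chr15:98092589-98132451, plus strand) encodes the muscle form and Pfkp (ENSMUSG00000021196, chr13:6579768-6648777, minus strand) the platelet form. Pfkp ranged from 108 to 425 CPM with a median of 303 in ganglion-like cells (292 ± 113, n = 10). It ranged from 27.5 to 116 CPM with a median of 77.8 in neuroblast-like cells (79.3 ± 28.8, n = 10) and from 0 to 25.6 CPM with a median of 13.5 in Schwann-like cells (13.6 ± 7.93, n = 9). The neuroblast-like and ganglion-like ranges met only between 108 and 116 CPM, and every neural value lay above every Schwann-like value. Pfkp was 3.46-fold lower in neuroblast-like than in ganglion-like cells (10 of 10 mice, edgeR adjusted p = 2.9e-07), 4.83-fold higher in neuroblast-like than in Schwann-like cells (9 of 9 mice, adjusted p = 2.9e-06) and 20.1-fold higher in ganglion-like than in Schwann-like cells (9 of 9 mice, adjusted p = 6.7e-11). Free RNA held 203 ± 90.6 CPM of Pfkp, and with its profile subtracted the log2 differences from Schwann-like cells were 3.10 in place of 2.27 and 5.22 in place of 4.33.

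Pfkm varied less. It ranged from 16.6 to 85 CPM with a median of 66.2 in ganglion-like cells (55.7 ± 24.5, n = 10), from 15.4 to 46 CPM with a median of 28.6 in Schwann-like cells (30.4 ± 9.57, n = 9), and from 0 in mouse 2 to 28.6 CPM with a median of 21 in neuroblast-like cells (19.6 ± 8.2, n = 10). The 3 ranges overlapped. Pfkm was 2.44-fold lower in neuroblast-like than in ganglion-like cells (9 of 10 mice, edgeR adjusted p = 5.4e-05). It was 1.67-fold lower in neuroblast-like than in Schwann-like cells (8 of 9 mice, adjusted p = 0.00846), but did not pass with DESeq2 (log2 difference −0.51, adjusted p = 0.125) or without the filter on low counts (−0.47, adjusted p = 0.169). In this comparison the log2 differences by DESeq2 lay above those by edgeR by a median of 0.24 over all genes, and what part of the lost call this makes up was not tested.

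Pfkp led in the neural classes and Pfkm in Schwann-like cells. Pfkm/Pfkp was below 1 in 9 of 9 mice with enough UMIs in neuroblast-like cells and in 10 of 10 in ganglion-like cells, with mean log2 ratios of −1.70 ± 0.71 and −2.38 ± 0.28 (SD). It was above 1 in the 5 mice with enough UMIs in Schwann-like cells, with a mean log2 ratio of 1.48 ± 0.49. The other mice had fewer than 10 UMIs of the pair there, among them mouse 7 with 3 of Pfkm and 5 of Pfkp and mouse 6 with 2 of each. Within mice the ratio was lower by a log2 difference of −3.74 ± 0.47 in ganglion-like and −3.14 ± 1.24 in neuroblast-like than in Schwann-like cells, in 5 of 5 mice each, where no p below 0.0625 is possible. Over all mice Schwann-like cells gave 73 UMIs of Pfkm and 31 of Pfkp, a Pfkm share of 70.2% (95% interval 60.4% to 78.8%), against 21.1% (18.9% to 23.3%) in neuroblast-like cells. Between neuroblast-like and ganglion-like cells the ratio differed by 0.68 ± 0.87, higher in neuroblast-like cells in 7 of 9 mice (exact p = 0.043). That last call was lost when any 1 of mice 1, 3, 4, 5, 6, 7 or 8 was left out, with a difference of 0.46 without mouse 3 (exact p = 0.0859).

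Aldolase splits fructose bisphosphate into a pair of smaller sugars. Aldoa (ENSMUSG00000030695, chr7:126795234-126800751, minus strand) encodes the form of muscle and most cells, and Aldoc (ENSMUSG00000017390, chr11:78322968-78327781, plus strand) the form of brain. In ganglion-like cells Aldoa ranged from 1904 in mouse 6 to 4624 CPM in mouse 2, with a median of 3236 (3281 ± 877, n = 10). In neuroblast-like cells it ranged from 524 to 1275 CPM with a median of 604 (727 ± 261, n = 10), and in Schwann-like cells from 524 to 700.4 CPM with a median of 601 (603 ± 56.5, n = 9). Every ganglion-like value lay above every neuroblast-like and Schwann-like value, and the latter classes overlapped. Aldoa was 4.38-fold lower in neuroblast-like than in ganglion-like cells (10 of 10 mice, edgeR adjusted p = 1.5e-09) and 4.83-fold higher in ganglion-like than in Schwann-like cells (9 of 9 mice, adjusted p = 2.6e-11). Between neuroblast-like and Schwann-like cells Aldoa differed by −0.02 ± 0.14 on the log2 scale (SE, adjusted p = 0.912). That small difference changed its sign with DESeq2 (0.22, adjusted p = 0.228), and without the marker-led cells Aldoa was lower in neuroblast-like cells (−0.27, adjusted p = 0.0125). The second Aldoa entry (ENSMUSG00000114515, chr7:126800790-126809108, minus strand) had 0 UMIs in these classes.

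Aldoc marked Schwann-like and ganglion-like cells. It ranged from 268 in mouse 8 to 619 CPM in mouse 9 in Schwann-like cells, with a median of 443 (457 ± 117, n = 9), and from 162 to 332 CPM in ganglion-like cells, with a median of 235 (249.8 ± 63, n = 10). In neuroblast-like cells it ranged from 0 to 57.8 CPM with a median of 11.2 (18.8 ± 20.8, n = 10). The ganglion-like and Schwann-like ranges overlapped, and every neuroblast-like value lay below both. Aldoc was 30.5-fold lower in neuroblast-like than in Schwann-like cells (9 of 9 mice, edgeR adjusted p = 6.4e-11), 13.4-fold lower than in ganglion-like cells (10 of 10 mice, adjusted p = 3.5e-09), and 2.03-fold lower in ganglion-like than in Schwann-like cells (9 of 9 mice, adjusted p = 9.6e-07). The highest neuroblast-like values of Aldoc came from mouse 4 (57.8 CPM) and mouse 10 (54.9 CPM), the mice with the most ganglion marker UMIs in that class (6058 and 7395 CPM). Without the marker-led cells Aldoc in neuroblast-like cells was 6.25 ± 4.17 CPM with a highest value of 15.7, and the log2 differences grew to −6.22 against Schwann-like and −5.05 against ganglion-like cells.

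The aldolase ratio separated all 3 classes. Log2 Aldoa/Aldoc ranged from 4.37 to 6.93 with a median of 5.38 in neuroblast-like cells (mean 5.51 ± 0.98 SD, n = 10), from 2.58 to 4.32 with a median of 3.79 in ganglion-like cells (3.69 ± 0.45, n = 10) and from −0.15 to 1.28 with a median of 0.41 in Schwann-like cells (0.43 ± 0.48, n = 9). No range overlapped another. As geometric means, there were 45.7 Aldoa UMIs per Aldoc UMI in neuroblast-like, 12.9 in ganglion-like and 1.35 in Schwann-like cells. The ratio was 3.53-fold higher in neuroblast-like than in ganglion-like cells, in 10 of 10 mice (exact p = 0.00195), and without mouse 2 the log2 difference was 1.94 in place of 1.82. It was 36.5-fold higher in neuroblast-like than in Schwann-like cells and 9.5-fold higher in ganglion-like than in Schwann-like cells, each in 9 of 9 mice (exact p = 0.00391). Free RNA, estimated at 1.69% to 10.8% of the UMIs in cells, held the pair at a log2 ratio of 3.38 ± 0.42, near that of ganglion-like cells. With its profile subtracted, the neuroblast-like ratio exceeded the ganglion-like one by 3.45 and the Schwann-like one by 6.83 on the log2 scale.

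Enolase forms phosphoenolpyruvate, the substrate of pyruvate kinase. Eno1 (ENSMUSG00000063524, chr4:150236721-150248879, plus strand) encodes the widespread form and Eno2 (ENSMUSG00000004267, chr6:124760053-124769673, minus strand) the neuronal form. Eno1 ranged from 300.3 to 1129 CPM with a median of 731 in ganglion-like cells (691 ± 294, n = 10), from 344 to 736 CPM with a median of 631 in neuroblast-like cells (590.1 ± 140.0, n = 10) and from 161 to 282 CPM with a median of 230.0 in Schwann-like cells (219 ± 44.4, n = 9). The neural ranges overlapped widely, and both lay above the Schwann-like range. Between neuroblast-like and ganglion-like cells the log2 difference in Eno1 was −0.09 ± 0.18 (SE, edgeR adjusted p = 0.681), and without mouse 2 it was 0.003 (adjusted p = 0.989). Eno1 was 2.27-fold higher in neuroblast-like (adjusted p = 2.6e-08) and 2.77-fold higher in ganglion-like than in Schwann-like cells (adjusted p = 1.1e-07), each in 9 of 9 mice. Eno1b (ENSMUSG00000059040, chr18:48045335-48048412, plus strand), a copy of Eno1 nearly identical in sequence, had 52.6 ± 28.8 CPM in neuroblast-like, 63.8 ± 30.3 CPM in ganglion-like and 19.6 ± 16.3 CPM in Schwann-like cells, and how many of its UMIs came from Eno1 was not tested.

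Eno2 was a transcript of ganglion-like cells. It ranged from 128 to 323 CPM there, with a median of 206 (214 ± 58, n = 10). It ranged from 2.11 to 54.5 CPM (1 UMI in mouse 2) with a median of 9.55 in neuroblast-like cells (17.3 ± 18.3, n = 10) and from 0 to 25.6 CPM with a median of 6.39 in Schwann-like cells (8.58 ± 9.33, n = 9). Every ganglion-like value lay above every neuroblast-like and Schwann-like value, and the latter classes overlapped. Eno2 was 17.2-fold lower in neuroblast-like than in ganglion-like cells (10 of 10 mice, edgeR adjusted p = 5.7e-10) and 29.2-fold higher in ganglion-like than in Schwann-like cells (9 of 9 mice, adjusted p = 2.1e-10). Without the marker-led cells the neuroblast-like level was 4.76 ± 2.85 CPM, with a highest value of 8.54, and the log2 difference from ganglion-like cells grew from −4.11 to −5.37, whereas without the RNA-rich ganglion-like cluster 8 it was −3.48. Free RNA held 61.7 ± 36.3 CPM of Eno2, and with its profile subtracted the log2 difference in Eno2 was −4.38 between neuroblast-like and ganglion-like cells and 5.29 in place of 4.87 between ganglion-like and Schwann-like cells.

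The enolase ratio set ganglion-like cells apart. Log2 Eno1/Eno2 ranged from 3.77 to 8.27 with a median of 6.10 in neuroblast-like cells (mean 5.98 ± 1.41 SD, n = 9), from 0.36 to 2.81 with a median of 1.501 in ganglion-like cells (1.59 ± 0.84, n = 10) and from 2.63 to 7.53 with a median of 4.75 in Schwann-like cells (4.83 ± 1.61, n = 9). Eno1 led in every class, but by a geometric mean of 3.01-fold in ganglion-like cells against 62.9-fold in neuroblast-like and 28.5-fold in Schwann-like cells. The ratio was 21.3-fold higher in neuroblast-like than in ganglion-like cells and 9.67-fold lower in ganglion-like than in Schwann-like cells, each in 9 of 9 mice (exact p = 0.00391). With 5 UMIs added the log2 difference between ganglion-like and Schwann-like cells was −1.54 in place of −3.27. Between neuroblast-like and Schwann-like cells it differed by 1.14 ± 2.33 on the log2 scale, higher in neuroblast-like cells in 5 of 9 mice (exact p = 0.199). Without the marker-led cells that difference was 1.93 (exact p = 0.00781). Schwann-like cells of all 10 mice gave 15 UMIs of Eno2, so that their ratio rests on few counts.

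Lactate dehydrogenase converts pyruvate to lactate and back. Ldha (ENSMUSG00000063229, chr7:46841475-46855627, plus strand) encodes the subunit typical of muscle and glycolytic tissue, and Ldhb (ENSMUSG00000030246, chr6:142490249-142507957, minus strand) the subunit typical of heart and oxidative tissue. Ldha ranged from 258 in mouse 6 to 1458 CPM in mouse 8 in ganglion-like cells, with a median of 994 (932 ± 336, n = 10). It ranged from 397 to 821 CPM with a median of 639.8 in neuroblast-like cells (626 ± 117, n = 10) and from 155 to 226 CPM with a median of 188 in Schwann-like cells (186 ± 25.4, n = 9). The neural ranges overlapped, and both lay above the Schwann-like range. Ldha was 2.69-fold higher in neuroblast-like (edgeR adjusted p = 6.7e-09) and 4.46-fold higher in ganglion-like than in Schwann-like cells (adjusted p = 6.3e-09), each in 9 of 9 mice. It was 1.4-fold lower in neuroblast-like than in ganglion-like cells (9 of 10 mice, adjusted p = 0.0165), a call that was lost when the RNA-rich ganglion-like cluster 8, with a median of 13721 UMIs per cell, was left out (log2 difference −0.38, adjusted p = 0.122).

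Of the 3 main classes, Schwann-like cells had the highest and neuroblast-like cells the lowest Ldhb. It ranged from 797 in mouse 5 to 1772 CPM in mouse 8 in Schwann-like cells, with a median of 986 (1064 ± 285, n = 9), from 170.3 to 258 CPM with a median of 229 in ganglion-like cells (217 ± 31.4, n = 10), and from 37 to 163 CPM with a median of 55.5 in neuroblast-like cells (69.3 ± 37.9, n = 10). No range overlapped another. Ldhb was 21.8-fold lower in neuroblast-like than in Schwann-like cells (9 of 9 mice, edgeR adjusted p = 5.4e-14), 3.47-fold lower in neuroblast-like than in ganglion-like cells (10 of 10 mice, adjusted p = 9.6e-09) and 5.09-fold lower in ganglion-like than in Schwann-like cells (9 of 9 mice, adjusted p = 2.8e-12).

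The lactate dehydrogenase ratio changed sides between neural and Schwann-like cells. Log2 Ldha/Ldhb ranged from 1.95 to 4.02 with a median of 3.35 in neuroblast-like cells (mean 3.27 ± 0.65 SD, n = 10), from 0.10 in mouse 6 to 2.57 with a median of 2.24 in ganglion-like cells (1.98 ± 0.73, n = 10) and from −3.48 in mouse 8 to −2.01 with a median of −2.38 in Schwann-like cells (−2.47 ± 0.43, n = 9). The neural ranges overlapped in part, and all Schwann-like values were negative. As geometric means, neuroblast-like cells had 9.65 Ldha UMIs per Ldhb UMI and ganglion-like cells 3.95, whereas Schwann-like cells had 5.55 Ldhb UMIs per Ldha UMI. The ratio was 59.3-fold higher in neuroblast-like and 21.2-fold higher in ganglion-like than in Schwann-like cells, each in 9 of 9 mice (exact p = 0.00391). It was 2.44-fold higher in neuroblast-like than in ganglion-like cells, in 9 of 10 mice (exact p = 0.00586), and without mouse 2, the mouse of opposite sign, the log2 difference was 1.49 in place of 1.29 (exact p = 0.00391 over 9 mice).

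The smaller classes were sampled at low depth, and their ratios are given with no test. In endothelial-like cells Ldha led Ldhb by a mean log2 ratio of 3.56 ± 1.04 (SD, n = 9), within the spread of neuroblast-like cells. In macrophage-like cells the pair was even, at 0.08 ± 0.88 (n = 7), with 127 UMIs of Ldha and 134 of Ldhb over all mice. This class of 240 cells is mixed: at resolution 1.0 it split into 191 cells and 49 led by the immunoglobulin genes Igkc and Ighm. Myofibroblast-like cells lay between ganglion-like and macrophage-like cells, at 1.18 ± 0.51 (n = 3). The leading genes of this class were Acta2, Tpm2, Myl9, Tagln, Ndufa4l2 and Rgs5, and no gene of the fibroblast-like cluster's leading genes was among them. Its name follows the study, which called cells with Acta2 and Myl9 myofibroblasts. Whether they are pericytes or smooth muscle cells was not tested. From highest to lowest Ldha/Ldhb the order was thus endothelial-like, neuroblast-like, ganglion-like, myofibroblast-like, macrophage-like and Schwann-like, and the intervals of mean ± SD of neighbors in that order overlapped except between macrophage-like and Schwann-like cells. Fibroblast-like cells gave 13 UMIs of each gene, and the T and NK-like cells 21 of Ldha and 3 of Ldhb.

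Aldoc and Eno2 were near the detection limit in all of these smaller classes. Aldoc gave 3 UMIs in endothelial-like, 2 in macrophage-like and 0 in myofibroblast-like and fibroblast-like cells, beside 419, 207, 180 and 62 UMIs of Aldoa. Aldoa itself reached 1751 ± 1116 CPM (n = 7) in myofibroblast-like cells, more than in neuroblast-like cells. Eno2 gave 1 UMI in endothelial-like cells and 0 in macrophage-like cells, beside 244 and 136 of Eno1. Macrophage-like cells were the class in which Hk2 outnumbered Hk1, with 13 UMIs against 5, a Hk1 share of 27.8% (exact 95% interval 9.69% to 53.5%), and 6 of the 13 came from mouse 4. Pfkp led Pfkm in endothelial-like cells with 31 UMIs against 11. Endothelial-like cells were not compared between conditions, because hemoglobin genes were among the leading genes of their cluster.

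The WT and 6-week mice were set beside the range of the 3-week Th-MYCN+/- mice. With 1 mouse each there is no test, intervals are exact Poisson 95% intervals that cover counting error only, and a value is called outside when it lies beyond all 3-week Th-MYCN+/- mice. Members are counted where the mean level of the class was at least 50 CPM, beside the share of all genes at that level that lay outside. Of the 32 WT cells in the neuroblast clusters, 31 carried more marker UMIs of another class, Schwann markers reached 11848 CPM, and no UMI of human MYCN was seen. These cells were therefore not compared as neuroblast-like cells.

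In the neuroblast-like class of the 6-week mouse the levels of Aldoa, Ldha and Pfkp lay above those of all 3-week Th-MYCN+/- mice, for Aldoa and Ldha with counting intervals that do not reach into the range. Aldoa reached 1790.5 CPM (1735 to 1847), above the 3-week range of 524 to 1275. Ldha reached 925 CPM (886 to 966) against at most 821, and Pfkp 129 CPM (115 to 145) against at most 116. These 3 of 5 members counted lay above the range, as did 6.85% of 3225 genes, and 0 lay below, as did 10.7%. Aldoc, at 63.5 CPM, and Eno2, at 62.6 CPM, were also above their ranges, as was Hk2 with 6 UMIs (2.7 CPM against at most 2.64), but the 3-week means of these 3 genes lay below 50 CPM, so that they are not counted. The counting intervals of Pfkp, Aldoc (53.5 to 74.9), Eno2 (52.7 to 74) and Hk2 reach into the 3-week range. For Eno2 the top of that range, 54.5 CPM, is 1 UMI in mouse 2. Log2 Eno1/Eno2 was 3.54 (3.29 to 3.805), just below the lowest 3-week value of 3.77.

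The 10 ganglion markers also lay above their 3-week range in the 6-week neuroblast-like class, with 10264 CPM against at most 7395. In the 6-week mouse 16 of the 256 neuroblast-like cells, with a median of 45098 UMIs each, held 26.3% of the class UMIs and carried more marker UMIs of another main class than of their own. Without such cells in any mouse, 0 of the counted members lay outside the 3-week Th-MYCN+/- range. The count was also 0 when cells were clustered on log-normalized counts or with all genes, and 4 with high doublet scores removed. The shares of all genes given above hold for the main setting only and are not compared with these counts. Of the 3 main classes ganglion-like cells had the highest Aldoa and Pfkp, so that leaving out cells with many ganglion markers can itself lower both. What caused the 6-week excess was not tested. In the setting without marker-led cells, the 6-week Th-MYCN+/- mouse had 571 CPM of Aldoa (range 451 to 709), 703 CPM of Ldha (394 to 854) and 72.1 CPM of Pfkp (27.9 to 104). Aldoc and Eno2 fell to 2.44 CPM each in the 6-week Th-MYCN+/- mouse. Log2 Aldoa/Aldoc was 7.70, above the highest 3-week value of 7.34, and log2 Hk1/Hk2 was 2.93, below the lowest of 3.61. Both ratios rest on few UMIs of Aldoc or Hk2 and have no counting interval here, so that neither is called outside beyond counting error.

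In ganglion-like cells the isozymes of the single mice lay mostly within the 3-week Th-MYCN+/- range. In the 6-week mouse 0 of 9 members counted were above the range, beside 4.96% of genes, and 1 was below, beside 4.09% of genes. That member was Ldhb, with 155 CPM (132 to 181) against a range of 170.3 to 258. In the WT mouse 0 of 9 members were above, beside 9.27% of genes, and 1 was below, beside 5.18% of genes, and it was again Ldhb, with 166 CPM (125 to 215). Both intervals reach into the 3-week range, so that neither value lay below it beyond counting error. Aldoa, the most abundant member of this class, had 2886 CPM in the 6-week and 3092 CPM in the WT mouse, near the 3-week median of 3236. Log2 Pfkm/Pfkp in the 6-week mouse was −2.02 (−2.47 to −1.61), just above the highest 3-week value of −2.04. Log2 Ldha/Ldhb was 2.35 in the 6-week and 2.33 in the WT mouse, and log2 Aldoa/Aldoc 3.96 and 3.395, all inside the range.

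Schwann-like cells of the single mice also lay mostly within the range. In the 6-week mouse 0 of 6 members counted were above the range, beside 4.82% of genes, and 0 were below, beside 6.29% of genes. In the WT mouse 1 of 6 members was above, beside 10.3% of genes, and 0 were below, beside 9.69% of genes. That member was Aldoa, with 863 CPM (749 to 990.4) against a 3-week range of 524 to 700.4. With class sums of at least 5 cells allowed, 0 members of the WT mouse lay outside the range. That setting admits the 7 Schwann-like cells of mouse 2, whose 6 UMIs of Aldoa gave 1466 CPM (538 to 3191), above the WT value. Ganglion markers summed to 2311 CPM in the Schwann-like cells of the WT mouse and to 2244 CPM in those of the 6-week mouse. Both sums lay above the highest 3-week value of 1917 in class sums of at least 10 cells. Aldoa had 646 CPM in the 6-week mouse, inside the range, and the cause of the WT value was not tested. Log2 Ldha/Ldhb was −2.24 in the 6-week and −2.66 in the WT mouse, inside the range, and Ldhb led in both. Log2 Pfkm/Pfkp in the 6-week mouse was 0.26, below the lowest value of the 3-week mice (0.80, n = 5), with a counting interval of −0.81 to 1.36. Pfkp, not counted at this level, had 30.6 CPM (17.1 to 50.4) against at most 25.6, and log2 Hk1/Hk2, with 0 UMIs of Hk2, was 6.02 against at most 5.88.

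The class differences in Aldoa/Aldoc, Eno1/Eno2 and Ldha/Ldhb that passed the exact test in the 3-week Th-MYCN+/- mice had the same direction within the single mice. Ganglion-like cells exceeded Schwann-like cells in log2 Ldha/Ldhb by 4.98 in the WT and 4.60 in the 6-week mouse, beside a mean of 4.40 in the 3-week Th-MYCN+/- mice. For Aldoa/Aldoc the same differences were 2.78 and 3.83, beside 3.25, and for Eno1/Eno2 they were −4.48 and −3.73, beside −3.27. In the 6-week mouse neuroblast-like cells exceeded ganglion-like cells by 0.85 in Aldoa/Aldoc, 2.58 in Eno1/Eno2 and 0.91 in Ldha/Ldhb, while Pfkm/Pfkp differed by −0.38, opposite to the 3-week mean of 0.68. These differences between ganglion-like and Schwann-like cells were thus also measured in a mouse without the transgene.

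Other glycolysis genes, 30 in all, give the setting of these pairs. Between neuroblast-like and ganglion-like cells 17 were tested. Of these 1 was higher in neuroblast-like cells, beside 35.2% of all genes, and 10 were higher in ganglion-like cells, beside 32.1%. Their median log2 difference was −0.47 beside 0.07 over all genes. The glucose transporter Slc2a3 was 5.47-fold lower in neuroblast-like cells (24.4 ± 11.7 against 152 ± 47.6 CPM, 10 of 10 mice, edgeR adjusted p = 1.5e-09), Gpi1, which converts glucose phosphate to fructose phosphate, 2.83-fold lower (adjusted p = 3.7e-07), and the mitochondrial pyruvate carrier gene Mpc1 2.35-fold lower (adjusted p = 2.0e-07). Gapdh, at 1683 ± 387 and 1751 ± 565 CPM, did not pass (adjusted p = 0.99). Against Schwann-like cells, neuroblast-like cells were higher for 7 and lower for 4 of 12 genes tested, beside 36.5% and 34.4% of all genes. The median was 0.53 beside 0.05. Ganglion-like cells were higher for 7 and lower for 2 of 11, beside 40.4% and 33.1% of all genes. The median there was 1.08 beside 0.12. Gapdh was 4.67-fold higher in neuroblast-like (9 of 9 mice, adjusted p = 5.1e-12) and 5.37-fold higher in ganglion-like than in Schwann-like cells (9 of 9 mice, adjusted p = 8.1e-11). Schwann-like cells had more Mpc1 (2.94-fold, adjusted p = 3.8e-10) and more Bpgm, which makes bisphosphoglycerate (3.12-fold, adjusted p = 1.3e-06), than neuroblast-like cells. Slc2a3 was 28.7-fold (adjusted p = 4.5e-11) and Gpi1 5.63-fold higher (adjusted p = 2.1e-09) in ganglion-like than in Schwann-like cells.

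Genes whose levels followed a member most closely were sought over the 29 class sums of the 3-week Th-MYCN+/- mice, as a description, by Pearson correlation of log2(CPM + 10) among 3391 genes. The class sums share libraries, and the values mostly reflect the differences between classes. Closest to Aldoa were Htr3b (r = 0.977), Mrap2 (0.973) and Agtr1a (0.968), and closest to Eno2 were Ndrg4 (0.965), Chchd10 (0.962) and Cystm1 (0.951). Ldha was closest to Pcmt1 (0.958), Chgb (0.948) and Gnas (0.943), and Pfkp to Slc25a33 (0.955), Pcmt1 (0.955) and Prkar1b (0.95). Ldhb was closest to Rhoc (0.977), Ndrg2 (0.971) and Itm2b (0.970), and Aldoc to Tapbp (0.965), Csrp1 (0.956) and Pea15a (0.953).

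The promoters of the lactate dehydrogenase pair, whose ratio changed sides between neural and Schwann-like cells, are shown because MYC proteins are known to bind the E-box CACGTG. Promoter sequences of all 10 members, from 250 bases before to 50 bases after a start, came from RefSeq (GRCm38.p6), and some genes have several. CACGTG reads the same on both strands and contains ACGTG. It was found in a promoter of Ldha (2 copies, the one nearer the 5′ end at −145 from the start) and in one of Pfkm (1 copy at −136), and in no listed promoter of the other 8 members. Of 32817 mouse promoters of this length 7.15% hold CACGTG, 19.6% hold ACGTG on either strand and 32.4% hold GCGTG on either strand. These shares are per promoter, whereas the members are given by gene, so that the matches were not compared with them. The Ldha promoter with these copies is chr7:46845554-46845853 on the plus strand, the other listed Ldha promoter (chr7:46846832-46847131) holds none and is not printed, and the Ldhb promoter is chr6:142507908-142508207 on the minus strand. Both printed promoters are written 5′ to 3′ with CACGTG in capitals. A match describes the letters and not a bound site, and binding was not measured.
Ldha: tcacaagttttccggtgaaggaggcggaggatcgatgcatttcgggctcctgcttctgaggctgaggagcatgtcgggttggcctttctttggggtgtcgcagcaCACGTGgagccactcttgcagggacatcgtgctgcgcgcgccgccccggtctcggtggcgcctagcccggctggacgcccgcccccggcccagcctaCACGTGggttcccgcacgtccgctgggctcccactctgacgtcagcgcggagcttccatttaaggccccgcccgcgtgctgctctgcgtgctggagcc
Ldhb: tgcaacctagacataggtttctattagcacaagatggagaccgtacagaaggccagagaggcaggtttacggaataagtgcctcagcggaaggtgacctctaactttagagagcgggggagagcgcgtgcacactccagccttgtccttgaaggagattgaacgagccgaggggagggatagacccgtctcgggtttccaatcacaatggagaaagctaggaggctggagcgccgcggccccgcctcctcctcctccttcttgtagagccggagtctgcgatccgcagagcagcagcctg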

How the data were processed

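The authors deposited a UMI count for each gene in each barcode, made with Cell Ranger 3.0.2 per the file headers on mm10 plus human MYCN, without normalization and with all barcodes kept. The annotation release is not given, and positions are those of GENCODE for GRCm38, matched by gene identifier. Cells were called with a version of EmptyDrops (lower bound 100 UMIs, 10000 draws, FDR 0.01) and kept with at least 200 genes, at most 10% mitochondrial and at most 60% ribosomal UMIs. Cells were clustered in R 4.3.3 on sctransform 0.4.2 residuals by Seurat 5.3.0 (2000 variable genes, 30 components, resolution 0.5), with 41 glycolysis features left out. A cluster took the name of a class when at least 50% of the marker list, and at least 3 genes, were 1.5-fold above other cells. Scrublet ran in scanpy 1.11.5.

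UMIs were summed per mouse and class. Levels were tested in edgeR 4.0.16 (filterByExpr, TMM, quasi-likelihood F test, mouse as a block, two-sided), and DESeq2 1.42.0 was an alternative. Classes are paired because they come from the same mouse and library. Checked once, the correlation of both class deviations of a mouse from their means lay between −0.00382 and 0.275 for neuroblast-like and ganglion-like, 0.0601 and 0.199 for neuroblast-like and Schwann-like, and 0.0525 and 0.244 for ganglion-like and Schwann-like cells. The fit was tested on simulated data. Ratios, intervals and figures were made with scipy 1.17.1, pandas 2.3.3, numpy 2.4.6 and matplotlib 3.10.9 under Python 3.11.15. Free RNA was profiled in barcodes with at most 100 UMIs, and its share came from Npy, Dbh and Th in Schwann-like and endothelial-like cells.

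The members, the marker lists and the lists of other glycolysis genes were chosen with earlier results of these data known. Named besides the members are, in each comparison, the 3 other glycolysis genes with the largest change past the threshold and a mean of at least 50 CPM, and the 3 genes most correlated with each of 6 members. Gapdh between neuroblast-like and ganglion-like cells was named after its values were seen. Alternatives were a stricter cell filter, other clusterings, removal of high doublet scores, subtraction of free RNA, at least 5 or 30 cells, means over cells, 5 UMIs added, DESeq2, a fit with no block, a fit on unfiltered genes, and leaving out mouse 2. Chosen after the data were seen were counting the low-depth cluster as neuroblast-like, leaving out the Schwann-like cluster of immediate early genes or the RNA-rich ganglion-like cluster, leaving out marker-led cells, and leaving out each other mouse. A gene among the other glycolysis genes enters the counts and is not reported by name here.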

Additional observations from a re-analysis of the deposited data

Results flagged for a closer look

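In 39 groups of mice, the highest or lowest mouse was tested for a gap to its neighbor that is large against the whole range of the group. Chance alone gives such a gap in about 1 in 20 groups, and 6 were found. Mouse 6 had the lowest log2 Aldoa/Aldoc in ganglion-like cells, 2.58 beside a next value of 3.49. It also had the lowest log2 Ldha/Ldhb in ganglion-like cells, 0.095 beside 1.503. Its ganglion-like class held 27 cells and 1280.2 CPM of Schwann markers, beside at most 792 in the other mice, and its share of free RNA, 10.8%, was the highest. Of the 3 main classes, Schwann-like cells have the lowest values of both ratios. Mouse 8 had the highest Ldhb in Schwann-like cells, 1772 CPM beside 1154, and with it the lowest log2 Ldha/Ldhb there, −3.48 beside −2.66. Mouse 2, with 23 neuroblast-like cells and 18355 UMIs in them, had the highest Ldhb in that class, 163 CPM beside 98.3, and the lowest Pfkm, 0 CPM beside 14.8. The Ldhb value rests on 3 UMIs. At this depth 1 UMI is 54.5 CPM, more than the highest Pfkm level in the other mice (28.6 CPM). Neither gap can thus be judged from these counts. The neuroblast-like class of mouse 2 also held 2833 CPM of Schwann markers, beside at most 221 in the other 3-week Th-MYCN+/- mice. Of its 23 cells, 9 carried more marker UMIs of another main class than of their own. The causes were not tested.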

How the results depend on the processing

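Of 15 ratio differences between classes, 11 kept their direction and side of the threshold under every alternative that gave a value. For 2 of the 11, Pfkm/Pfkp against Schwann-like cells, only the direction could change, since 5 mice are too few for a p below the threshold. Of 333 values under 24 settings 313 did. The log2 difference in Aldoa/Aldoc ranged from 1.27 to 3.45 (neuroblast-like against ganglion-like), 4.80 to 6.83 (neuroblast-like against Schwann-like) and 2.66 to 3.38 (ganglion-like against Schwann-like). That in Ldha/Ldhb ranged from 0.94 to 1.69, 5.65 to 6.27, and 4.17 to 4.64 in the same order, and that in Eno1/Eno2 from 3.92 to 5.29, 0.71 to 2.39, and −3.695 to −1.54, the last with 5 UMIs added. Log2 Eno1/Eno2 in neuroblast-like against Schwann-like cells passed the threshold with log-normalized clustering (1.99), marker-led cells left out (1.93), the mean over cells (1.89) and 5 UMIs added (2.39), with exact p from 0.00781 to 0.0156. Hk1/Hk2 in neuroblast-like against ganglion-like cells reversed with the mean over cells (0.196), and did not pass with 5 UMIs added (−0.355) or without the RNA-rich cluster (−1.70), where 4 mice remained. Hk1/Hk2 in neuroblast-like against Schwann-like cells passed with 5 UMIs added (1.18). Pfkm/Pfkp in neuroblast-like against ganglion-like cells did not pass with the stricter cell filter (0.748), the low-depth cluster counted (0.506), at least 30 cells (0.656), the mean over cells (0.807) or 5 UMIs added (0.398), and leaving out 1 mouse at a time gave 0.462 to 0.856.

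Among levels of single members, 382 of 399 values kept direction and call, 7 reversed, 3 lost a call and 7 gained one. In neuroblast-like against Schwann-like cells, log-normalized clustering gave the largest differences for Aldoa (−0.347, main −0.019) and Hk1 (−0.655, main −0.486). Eno1 in neuroblast-like against ganglion-like cells reversed without mouse 2 (0.003) and without the RNA-rich cluster (0.079). Aldoa in neuroblast-like against Schwann-like cells reversed without the filter (0.262), without the block (0.032), with DESeq2 (0.224), with at least 5 cells (0.002) and with the low-depth cluster counted (0.061). None of these reversed values passed the threshold. The number of genes past the threshold rose without the filter on low counts, which tests more genes: 3844 and 3779 in neuroblast-like against ganglion-like, 4386 and 3551 in neuroblast-like against Schwann-like, and 3681 and 3032 in ganglion-like against Schwann-like cells. DESeq2 gave 3589 genes higher in ganglion-like than in neuroblast-like cells, 3752 and 3256 in neuroblast-like against Schwann-like, and 2777 and 3057 in ganglion-like against Schwann-like cells. Without the RNA-rich cluster there were 1609 and 1343 in neuroblast-like against ganglion-like and 693 and 673 in ganglion-like against Schwann-like cells.

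The number of members outside the 3-week range in 6-week neuroblast-like cells fell from 3 to 0 with all genes in clustering, to 0 with log-normalized clustering and to 0 with marker-led cells left out, and rose to 4 with high doublet scores removed. In 6-week ganglion-like cells it was 0 with log-normalized clustering, where Ldhb lay just inside the range, 2 with high doublet scores removed, 2 without the RNA-rich cluster and 2 with at least 30 cells, and in 6-week Schwann-like cells 2 without the immediate early cluster. In WT ganglion-like cells it was 0 with log-normalized clustering and 2 without the RNA-rich cluster, and in WT Schwann-like cells 2 with log-normalized clustering, 2 with free RNA subtracted and 0 with at least 5 cells. The log-normalized clusters differed between an earlier run and the final run, which fixes the linear algebra settings of the machine. In the earlier run Ldhb in 6-week ganglion-like cells lay just below the range with log-normalized clustering too. Whether those settings made the difference was not tested. Results of the main clustering did not change between these runs. Except where fewer or more genes, cells or mice entered by construction, the cause was not tested. Few UMIs were counted for Hk2 in the 3 main classes and for Eno2 and Pfkp in Schwann-like cells.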

Other observations

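Neuroblast-like cells fell into cluster 2, led by cell cycle genes such as Rrm2, Cdk1 and Ccnb1, and cluster 4, led by Cartpt, Vip and Nhlh2. Both had the same leading isozymes. Mean log2 Aldoa/Aldoc was 5.61 ± 1.33 (SD, n = 9 mice) in cluster 2 and 5.71 ± 0.84 (n = 9) in cluster 4, and log2 Ldha/Ldhb was 3.43 ± 0.86 (n = 10) and 3.27 ± 0.43 (n = 9). Log2 Pfkm/Pfkp was −1.99 ± 0.92 (n = 9) and −1.21 ± 0.78 (n = 9), and these differences between clusters were not tested.

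In the unnamed cells of cluster 1 the mean log2 Ldha/Ldhb was 2.97 ± 0.46 (n = 10) and Aldoa/Aldoc 5.42 ± 1.37 (n = 10), of the 3 main classes nearest to neuroblast-like cells, while Pfkm/Pfkp, at −2.19 ± 1.54 (n = 8), was nearest to ganglion-like and Eno1/Eno2, at 4.35 ± 1.23 (n = 10), to Schwann-like cells. Schwann-like cells of cluster 6, led by Ccn1, Hspa1a and Socs3, with Fos and Junb among the leading genes, had log2 Aldoa/Aldoc of 0.11 ± 0.47 (n = 8) beside 0.59 ± 0.47 (n = 9) in the main Schwann-like cluster 0, and log2 Ldha/Ldhb of −2.56 ± 0.45 (n = 8) beside −2.37 ± 0.54 (n = 9).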
